A study of Homo sapiens with 6 samples.

Results

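The genes described here are those whose expression stood highest in a single library of the series, LV-NC-labeled replicate 1. HaCaT cells, an immortalized line of human keratinocytes, were infected with control lentivirus (LV-NC) or with lentivirus carrying *ATF7* (LV-*ATF7*) for 48 hours and then cultured under high glucose (HG), 25 mM, for 24 hours. Both groups therefore shared the infection, the HG medium and a single cell line, and 3 libraries of poly(A) RNA were sequenced per group. The labels do not say whether replicates came from separate cultures. Members were chosen by their counts: a gene needed at least 30 counts in LV-NC-labeled replicate 1 and a level there at least 75% above the highest level in any of the other 5 libraries, where the level is the count per 1000000 counts of the library (CPM). Of 12499 genes in the table, 11403 had the minimum count and 159 also met the fold, or 1.39% of those with the minimum count. *CHAC1*, *ASNS* and *TXNIP* were among 8 genes left out by name, which left 156 members. The height of the members in LV-NC-labeled replicate 1 is what selected them, so it is given as a description. Only 1 library carries it, and no test between groups was made.

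Among the members with the highest CPM were 4 immediate early genes (*EGR1*, *CCN1*, *JUN* and *FOSB*). Immediate early genes are transcribed within minutes of a stimulus such as serum, growth factors, stretch or wounding, because their promoters are already occupied by factors that phosphorylation switches on. Their products include the FOS and JUN proteins, which pair as the transcription factor AP-1, and the EGR and KLF zinc finger factors. In epidermis, these factors act in wound edge keratinocytes and in the switch from division to differentiation. ATF7 is a relative of the AP-1 proteins and binds the cyclic AMP response element (CRE).

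*ATF7* was examined first as a check of the labels. Its level was 55.6, 48.4 and 54.1 CPM under the label LV-NC and 21, 24.6 and 25.8 CPM under the label LV-*ATF7* (52.7 ± 3.75 and 23.8 ± 2.48, SD, n = 3 each). The gene was therefore lower in all 3 libraries labeled as carrying it, and every direction between groups rests on labels that *ATF7* goes against. In GENCODE release 29, 43.8% of its exon bases are shared with exons of other genes. Total counts ranged from 16686472 to 20562768 per library, and LV-NC-labeled replicate 1 lay within that range at 17009232. Over the 11403 genes, the median size of the log2 difference between LV-NC-labeled replicate 1 and LV-NC-labeled replicates 2 and 3 was 0.31 and 0.30, whereas replicates 2 and 3 differed by 0.09 and the LV-*ATF7* libraries by 0.08 to 0.15 among themselves. In LV-NC-labeled replicate 1, hereafter the outlying library, the median gene was 0.09 (log2 CPM) above the mean of the other libraries labeled LV-NC and 0.22 above the mean of those labeled LV-*ATF7*. With TMM scaling (trimmed mean of M values), these shifts were 0.02 and 0.01, and 93 of the 156 members still met the rule.

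The rule picked far fewer genes in any other library. Put in the place of the outlying library, LV-NC-labeled replicates 2 and 3 gave 4 and 2 genes (0.0352% and 0.0177% of the genes with at least 30 counts there). LV-*ATF7*-labeled replicates 1, 2 and 3 gave 3, 3 and 1 genes (0.0259%, 0.0257% and 0.00861%). The outlying library also had the most genes far below the others. In it, 159 of 10814 genes (1.47%) lay so low that the lowest other library was at least 75% above it, compared with 2 to 11 genes for each other library.

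**Figure D1:**
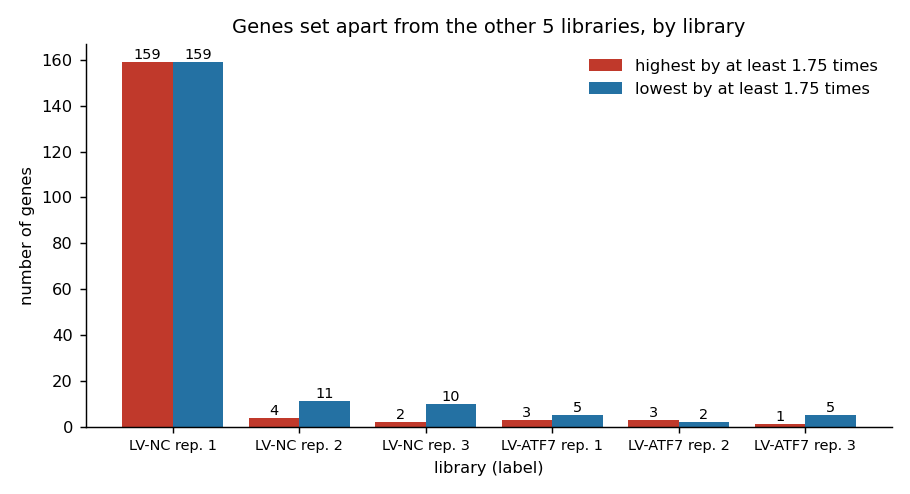
Number of genes (vertical axis) that stood at least 75% above the highest of the other 5 libraries (red bars) or that the lowest of the other 5 exceeded by at least 75% (blue bars), for each of the 6 libraries by label. LV-NC-labeled replicate 1 has 159 genes of each kind, and no other library has more than 4 of the first or 11 of the second.

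Promoter sequence is shown for 4 members from the gene lists whose upstream bases hold a motif of the factors just named or a related one: *EGR1* and *DUSP8* among the immediate early genes, *IVL* of keratinocyte differentiation and *ARRDC4* of growth factor withdrawal. The 250 bases before the start of each gene were taken from RefSeq (GRCh38.p14) and are written in the direction of the gene, with matches in capitals. In *EGR1* the capitals mark 2 CArG boxes, the sites of serum response factor, at 105 to 96 and 83 to 74 bases before the start. In *DUSP8* they mark 2 copies of the CRE, TGACGTCA, 118 to 111 and 74 to 67 bases before the start. In *IVL* they mark an AP-1 site, and in *ARRDC4* an E-box (CACGTG) followed by an AP-1 site.
EGR1 (chr5:138465229-138465478, plus strand): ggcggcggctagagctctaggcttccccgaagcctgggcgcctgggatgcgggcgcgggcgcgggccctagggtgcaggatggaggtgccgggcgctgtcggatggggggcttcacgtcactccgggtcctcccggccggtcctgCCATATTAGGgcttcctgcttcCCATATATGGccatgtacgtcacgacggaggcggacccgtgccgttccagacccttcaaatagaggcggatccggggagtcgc
DUSP8 (chr11:1572272-1572521, minus strand): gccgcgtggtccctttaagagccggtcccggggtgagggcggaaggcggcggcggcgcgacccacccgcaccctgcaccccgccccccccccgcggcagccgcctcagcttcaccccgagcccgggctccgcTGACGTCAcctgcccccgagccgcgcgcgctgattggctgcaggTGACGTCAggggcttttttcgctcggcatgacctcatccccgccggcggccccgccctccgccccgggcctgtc
IVL (chr1:152908296-152908545, plus strand): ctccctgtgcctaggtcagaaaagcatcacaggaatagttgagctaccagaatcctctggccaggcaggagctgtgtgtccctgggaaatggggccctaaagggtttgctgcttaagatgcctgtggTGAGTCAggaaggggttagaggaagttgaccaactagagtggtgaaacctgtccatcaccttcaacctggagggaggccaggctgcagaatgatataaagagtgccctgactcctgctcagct
ARRDC4 (chr15:97960453-97960702, plus strand): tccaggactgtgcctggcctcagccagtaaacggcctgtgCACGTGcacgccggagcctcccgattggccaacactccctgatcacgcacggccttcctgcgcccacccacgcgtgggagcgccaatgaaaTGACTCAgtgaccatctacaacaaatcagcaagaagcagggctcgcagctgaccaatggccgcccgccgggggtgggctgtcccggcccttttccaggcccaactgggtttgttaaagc

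RefSeq promoters matched 126 of the 156 members by symbol. The letters of each motif were searched on both strands, the motifs were chosen after the members were known, and no match printed here overlaps another. A CRE was found in 2 of the 126 promoters (1.59%), compared with 1.77% of all 27305 promoters and 3.0% of the 9321 whose gene had at least 30 counts. An AP-1 site (TGANTCA) was found in 8 (6.35%), compared with 6.60% of all promoters and 3.79% of those whose gene had that count. A CArG box was found in 3, *EGR1*, *ATXN1* and *ZNF548* (2.38%), compared with 1.14% and 0.998%. The TEAD motif GGAATG was found in 13 (10.3%), compared with 11.9% and 9.30%. The motif TGATGNAA, to which ATF4 binds with C/EBP factors, was found in 2 (1.59%), compared with 3.19% and 1.31%. The E-box was found in 10 (7.94%), compared with 6.49% and 8.81%, and the SMAD box GTCTAGAC in none, compared with 0.176% and 0.118%. For the AP-1 site, the TEAD motif, TGATGNAA and the E-box, the members lay above one of these shares and below the other. These matches are letters in a window and say nothing of binding.

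The 12 members of highest ratio spanned weakly and strongly expressed genes. *MAP2* (chr2:209424058-209734118, plus strand), a microtubule-associated protein best known from neuronal dendrites, was at 9.35 CPM in the outlying library. It was at 1.59 and 1.44 CPM in LV-NC-labeled replicates 2 and 3 and at 1.39, 0.584 and 1.53 CPM in the LV-*ATF7* libraries. The ratio of the outlying library to the highest other was 5.89 (95% exact interval 3.95 to 9.09), the highest of all members, and the other 5 libraries overlapped between groups. These intervals, from the Clopper-Pearson method, cover counting error only.

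*EDN1* (chr6:12290363-12297194, plus strand), which encodes endothelin-1, a vasoconstrictor peptide that keratinocytes also secrete, was at 54.3 CPM in the outlying library. It was at 10.6 and 11.4 CPM in the other libraries labeled LV-NC and at 10.4, 10.1 and 6.87 CPM in those labeled LV-*ATF7*. The 5 libraries thus lay close together and the outlying library stood 4.75 times above them (4.06 to 5.58), on 924 counts. *PMEPA1* (chr20:57648392-57711536, minus strand), a membrane protein induced by TGF-β that dampens TGF-β signaling, had the same shape on more counts. It was at 447 CPM, compared with 133 and 138 CPM and with 120, 118 and 126 CPM, a ratio of 3.23 (3.08 to 3.38). *CCN1* (chr1:85580761-85583962, plus strand), a secreted matrix protein that binds integrins, was at 1068 CPM, compared with 356 and 366 CPM in the LV-NC group and 195, 198 and 199 CPM in the LV-*ATF7* group. Its ratio was 2.92 (2.84 to 3.01), and the other LV-NC libraries were also above all LV-*ATF7* libraries.

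*IQCN* (chr19:18257097-18274509, minus strand), a protein with calmodulin-binding IQ motifs, was among the 12 members of highest ratio and differed steeply between groups. It was at 254 CPM in the outlying library, 85.0 and 93.9 CPM in the other LV-NC libraries and 5.30, 4.86 and 5.40 CPM in the LV-*ATF7* libraries. The ratio to the highest other library was 2.70 (2.55 to 2.86). The outlying library thus extended a difference that the other 5 libraries already showed.

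The other 7 of the 12 highest ratios rest on 63 to 113 counts in the outlying library and have wide intervals. *DDR2*, a receptor tyrosine kinase for fibrillar collagen, was at 4.88 CPM, compared with 1.37 and 1.56 CPM and with 0.321, 0.729 and 0.407 CPM (ratio 3.13, 1.99 to 5.07). *DACT1*, a Dishevelled-binding protein that restrains Wnt signaling, was at 6.11 CPM, compared with 1.64 and 2.22 CPM and with 0.214, 0.681 and 0.255 CPM (2.76, 1.88 to 4.13). *CST7*, the cysteine protease inhibitor cystatin F, was at 6.64 CPM, compared with 2.19 and 2.10 CPM, and had 0, 0 and 0.102 CPM in the LV-*ATF7* libraries (3.04, 2.10 to 4.47). In each of these 3 genes the LV-NC libraries lay above the LV-*ATF7* libraries without the outlying library as well. The same held for *TCTE1*, *MINAR1* and *RGPD5*, though not for *CEND1*, and for 50.3% of all genes with at least 30 counts.

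*CEND1*, a protein of neuronal cell cycle exit, was at 3.70 CPM against at most 1.20 CPM elsewhere (3.09, 1.84 to 5.40). *TCTE1*, a part of the dynein regulatory complex of cilia and flagella, was at 4.53 CPM against at most 1.5 CPM (3.02, 1.90 to 4.95). *MINAR1* was at 3.82 CPM against at most 1.37 CPM (2.80, 1.74 to 4.63). *RGPD5* was at 4.88 CPM against at most 1.32 CPM (3.70, 2.29 to 6.22), and its count is uncertain, since the RGPD genes are near-identical copies derived from *RANBP2* among which reads can be split. The same holds for *RGPD8*, another member.

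**Figure D2:**
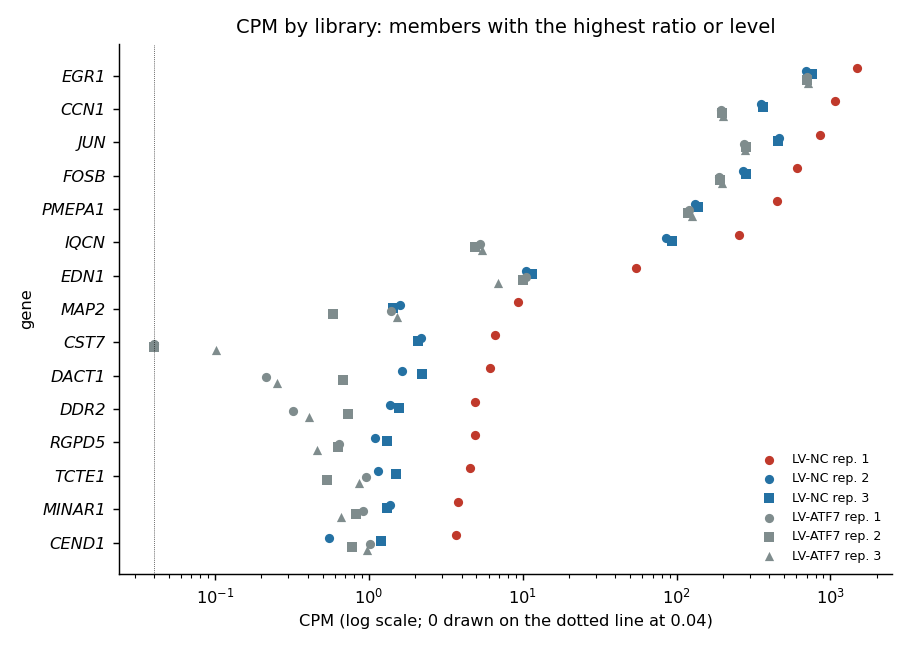
CPM (horizontal axis, log scale) in each library for 15 of the members with the highest ratio or the highest CPM, 1 point per library, with no error bars because each point is a single library. The red point, LV-NC-labeled replicate 1, lies right of all others in every row, by the rule; the other 5 libraries lie close together for *EDN1*, *PMEPA1* and *EGR1* and split by label for *IQCN* and *CST7*.

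The immediate early list held 8 of the members. Of its 51 genes with at least 30 counts, 8 met the rule (15.7%), against 1.39% of all genes with that count. The list was written with earlier results of these data known, so these shares describe the members and are no test. The members were *CCN1*, *FOSB*, *DUSP8*, *RHOB*, *KLF4*, *EGR1*, *KLF6* and *JUN*, and all 8 still met the rule with TMM, median-of-ratios or upper quartile scaling. The median ratio over the 51 genes was 1.04, compared with 0.846 over all genes, and 28 of the 51 were highest in the outlying library by some margin, where this held for 31.6% of all genes. With TMM scaling, 21 of the 51 and 2609 of all 11403 genes were highest there. The members are thus the upper end of a list whose ratios spread in both directions. A ratio under 1 can arise from high levels in the LV-*ATF7* libraries alone. *BTG2*, with a ratio of 0.463, was at 116 CPM in the outlying library and 77.5 and 85.8 CPM in the other LV-NC libraries. Against the mean of the other LV-NC libraries, the median over the list was 1.15, compared with 1.07 over all genes.

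Of the transcription factors, *EGR1*, a zinc finger factor, had the highest CPM of any member, a ranking that does not allow for gene length. It was at 1495 CPM in the outlying library, 698 and 759 CPM in LV-NC-labeled replicates 2 and 3 and 705, 702 and 710 CPM in the LV-*ATF7* libraries (ratio 1.97, 1.93 to 2.01). Outside the outlying library *EGR1* therefore hardly varied, and the groups overlapped. *FOSB*, an AP-1 subunit, was at 608 CPM, compared with 270 and 281 CPM and with 188, 191 and 197 CPM (2.16, 2.09 to 2.24). *JUN*, its partner, was at 861 CPM, compared with 463 and 459 CPM and with 274, 281 and 278 CPM (1.86, 1.81 to 1.91). Both AP-1 genes stepped down from the outlying library to the other LV-NC libraries and again to the LV-*ATF7* libraries. With TMM scaling the ratios of *EGR1* and *JUN* were 1.77 each, just over the threshold.

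*KLF4*, a Krüppel-like factor needed for the skin barrier, was at 234 CPM, compared with 112 and 116 CPM and with 64.6, 62.8 and 61.7 CPM (2.01, 1.90 to 2.12). *KLF6* was at 273 CPM, compared with 141 and 144 CPM and with 53, 53.9 and 43.9 CPM (1.90, 1.81 to 2.0). *RHOB*, a short-lived GTPase of endosomes and stress fibers, was at 373 CPM, compared with 183 and 176 CPM and with 46.8, 51.0 and 45.9 CPM (2.04, 1.95 to 2.12). *DUSP8*, a phosphatase that switches off JNK and p38 kinases, was at 13.5 CPM, compared with 6.51 and 6.47 CPM and with 4.02, 4.47 and 4.48 CPM (2.07, 1.65 to 2.60). In these 4 genes the outlying library had about the same ratio to the other LV-NC libraries, while the step between groups differed.

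The rest of the list did not follow as a block. *ATF3*, *DUSP1*, *KLF10*, *GADD45B* and *MAFF* came next, with ratios of 1.62, 1.59, 1.58, 1.58 and 1.56. *FOS* was at 759 CPM in the outlying library, 428 and 430 CPM in the other LV-NC libraries and 546, 542 and 536 CPM in the LV-*ATF7* libraries, a ratio of 1.39. *JUNB* and *FOSL1*, further AP-1 subunits, had ratios of 0.774 and 0.493. *JUNB* was at 628 CPM in the outlying library, above the 449 and 449 CPM of the other LV-NC libraries. The LV-*ATF7* libraries were higher, at 725, 740 and 811 CPM. *FOSL1* was at 81.0 CPM in the outlying library, compared with 164 and 159 CPM in the other LV-NC libraries. *CCN2*, the close relative of *CCN1*, was at 21.2 CPM, compared with 23.5 and 24.5 CPM, so it stood slightly below them while *CCN1* stood 2.96 times above their mean. *PPP1R15A* and *IER2* had ratios of 1.03 and 1.0. These genes were named after their values were seen.

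**Figure D3:**
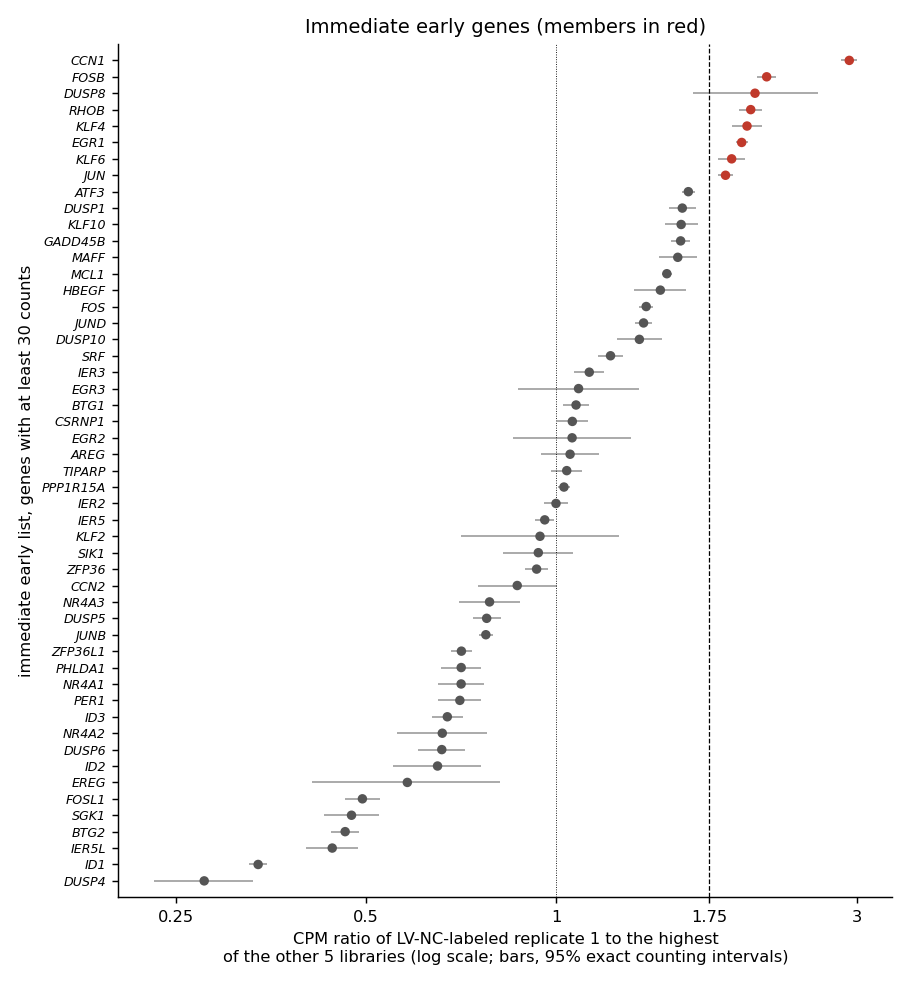
Ratio of LV-NC-labeled replicate 1 to the highest of the other 5 libraries (horizontal axis, log scale) for the 51 immediate early genes with at least 30 counts, in order of the ratio, with 95% exact counting intervals as bars. The 8 members in red run from 1.86 (*JUN*) to 2.92 (*CCN1*), the dashed line is the threshold, and the lowest gene, *DUSP4*, is at 0.277.

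**Figure D4:**
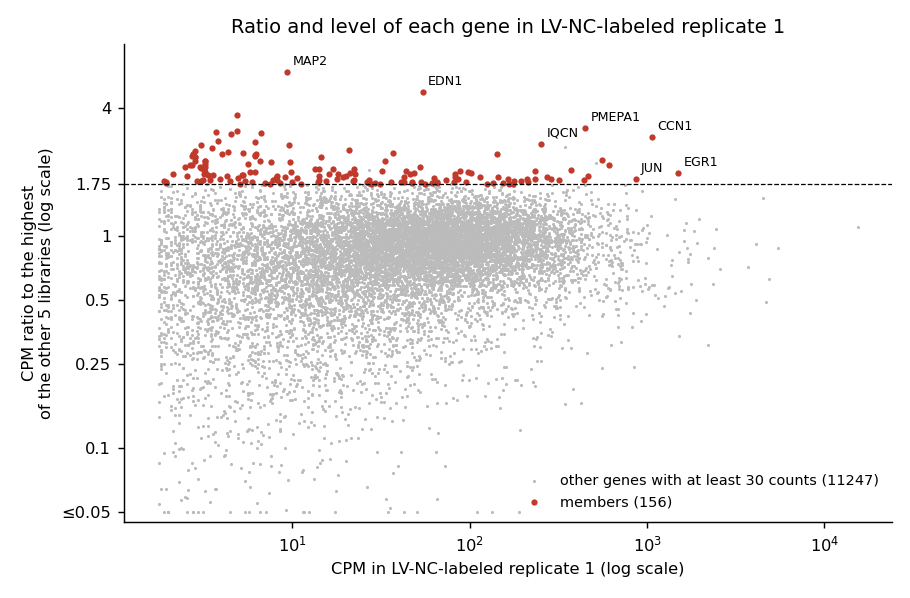
Ratio of LV-NC-labeled replicate 1 to the highest other library (vertical axis, log scale) against CPM in LV-NC-labeled replicate 1 (horizontal axis, log scale), 1 point per gene with at least 30 counts. Members in red lie above the dashed line, the threshold, and most lie below a ratio of 2; the 3 gray points above the line are *CHAC1*, *TXNIP* and *ASNS*, which were left out by name.

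A pair of members belonged to keratinocyte differentiation. *IVL* encodes involucrin, a precursor of the cornified envelope, and was at 14.5 CPM in the outlying library, 6.18 and 5.75 CPM in the other LV-NC libraries and 1.88, 1.41 and 2.09 CPM in the LV-*ATF7* libraries (2.34, 1.87 to 2.95). *KLF4* was the other. These are 2 of 9 genes of that list with at least 30 counts, against 1.37% of all genes with that count. The remaining 7 had ratios from 0.159 (*GRHL3*) to 1.09 (*GRHL1*). The count minimum applied to the outlying library itself and kept out *FLG*, *SPINK5* and *ZNF750*, with 15, 11 and 5 counts there. Their ratios were 0.0498, 0.0427 and 0.0646, and their highest levels were in the LV-*ATF7* libraries. *KRT10*, the keratin of the suprabasal layers, was at 111 CPM in the outlying library and at 119 and 119 CPM in the other LV-NC libraries. The list therefore did not move together.

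The list of FOXO targets and genes of growth factor withdrawal held 2 members of 26 genes, *KLF6* and *ARRDC4*, against 1.39% of all genes. Before genes were left out by name, 3 of the 26 met the rule, the third being *TXNIP* at a ratio of 2.21. *ARRDC4*, an arrestin-like relative of *TXNIP* that restrains glucose uptake, was at 155 CPM in the outlying library, 86.9 and 86.9 CPM in the other LV-NC libraries and 20.2, 19.1 and 16.4 CPM in the LV-*ATF7* libraries. Its ratio was 1.78 (1.67 to 1.90), and it was 1.68 with TMM scaling, under the threshold. *ARRDC2* and *ARRDC3*, its relatives, had ratios of 0.497 and 0.609.

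Other lists contributed 1 member or none. *VLDLR*, a lipoprotein receptor, was the single member among 41 genes of the ATF4 and integrated stress response list (7.76 CPM against at most 4.25, ratio 1.82). Before genes were left out by name, 3 of the 41 met the rule, the others being *CHAC1* and *ASNS*. *ZMAT3*, an RNA-binding target of p53, was the single member among 29 p53 targets (94.8 CPM against at most 53, ratio 1.79). With TMM scaling *VLDLR* and *ZMAT3* each had a ratio of 1.69, under the threshold. There was no member among 20 cytosolic aminoacyl-tRNA synthetases, 24 endoplasmic reticulum stress genes, 23 NF-κB and inflammatory genes, 29 interferon-stimulated genes or 23 NRF2 and antioxidant genes. There was none among 18 heat shock genes, 24 hypoxia genes, 13 glucocorticoid response genes, 29 genes of sterol and fatty acid synthesis, 27 autophagy and lysosome genes, 19 histones, 30 genes of mitosis and DNA replication or 12 mitochondrially encoded genes. The members were 1.37% of all genes with at least 30 counts, so a list of this size would often hold none. The integrated stress response and endoplasmic reticulum stress lists held 22 of 41 and 13 of 24 genes highest in the outlying library by some margin. With TMM scaling these were 19 and 12. Over all genes this held for 31.6%, and with TMM scaling for 2609 of 11403. The median ratios of these lists were 1.04 and 1.06, compared with 0.846 over all genes. The immediate early list, with 28 of 51 genes and a median ratio of 1.04, was similar.

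The 8 genes left out by name, most of them known from the integrated stress response or the p53 response, did not share a common height. *CHAC1*, which degrades glutathione, was at 346 CPM in the outlying library and 133, 132, 105, 103 and 122 CPM in the others (2.61, 2.49 to 2.73). *TXNIP*, an arrestin-like protein induced by glucose, was at 513 CPM, compared with 218, 225, 210, 232 and 229 CPM (2.21, 2.13 to 2.29). *ASNS*, asparagine synthetase, was at 26.9 CPM, compared with 11.7, 13.2, 5.14, 6.27 and 4.38 CPM (2.04, 1.73 to 2.40). These 3 genes met the rule. *ATF3* had a ratio of 1.62, and *SESN2*, *TRIB3*, *DDIT3* and *CDKN1A* had ratios of 1.20, 1.18, 1.11 and 1.09, so these 4 stood much less far above the other libraries.

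Among themselves, the members varied more in level than in ratio. The ratio had a median of 1.93, with quartiles at 1.82 and 2.18, and 61 members reached 2, 8 reached 3 and 2 reached 4. CPM in the outlying library ran from 1.88 to 1495 with a median of 14.1, and 72 members were under 10 CPM. Of the 156, 106 had at least 100 counts there. The interval of the ratio lay above 1 for 153 members, the exceptions being *NDUFB8*, *SLC18A2* and *ACRBP* with 32 or 33 counts, and lay wholly above the threshold for 39. The members summed to 12667 CPM in the outlying library, 5863 and 6062 CPM in the other LV-NC libraries and 4205, 4206 and 4036 CPM in the LV-*ATF7* libraries.

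The threshold cut through a continuous range of ratios. Just inside it were *SOX4*, a transcription factor (167 CPM, ratio 1.752), *CCDC17* (11.2 CPM, 1.751) and *PTPRJ*, a receptor tyrosine phosphatase (27.6 CPM, 1.751). Just outside were *PLAG1*, a zinc finger factor (46.3 CPM, 1.749), *TMEM63C* (2.41 CPM, 1.749) and *ZXDA* (30.2 CPM, 1.748). All 6 had intervals that included the threshold. With TMM scaling the 3 inner genes had ratios of 1.52, 1.65 and 1.66. The table also sets a floor on the members: every gene in it had at least 1.02 CPM in at least 2 libraries, so a gene expressed in the outlying library alone was not analyzed here.

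The rule bears on the other 5 libraries too, because a member had to exceed the highest of them and a gene high in the LV-*ATF7* libraries could seldom do so. The counts that follow therefore describe the members and are no comparison independent of the rule. LV-NC-labeled replicates 2 and 3 were both above all 3 LV-*ATF7* libraries for 101 members (64.7%), where this held for 50.3% of all genes with at least 30 counts. The reverse held for 8 members (5.13%), against 35.8% of all genes, and 47 members overlapped. With TMM scaling these counts were 87 and 15 of the 156 members, compared with 44.3% and 41.6% of all genes. The median log2 ratio of the 2 LV-NC libraries to the 3 LV-*ATF7* libraries, on mean CPM + 0.1, was 0.46 over the members and 0.18 over all genes. Between replicates 2 and 3 of LV-NC, the higher level was the runner-up to the outlying library in 131 members, 50 in replicate 2 and 81 in replicate 3.

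**Figure D5:**
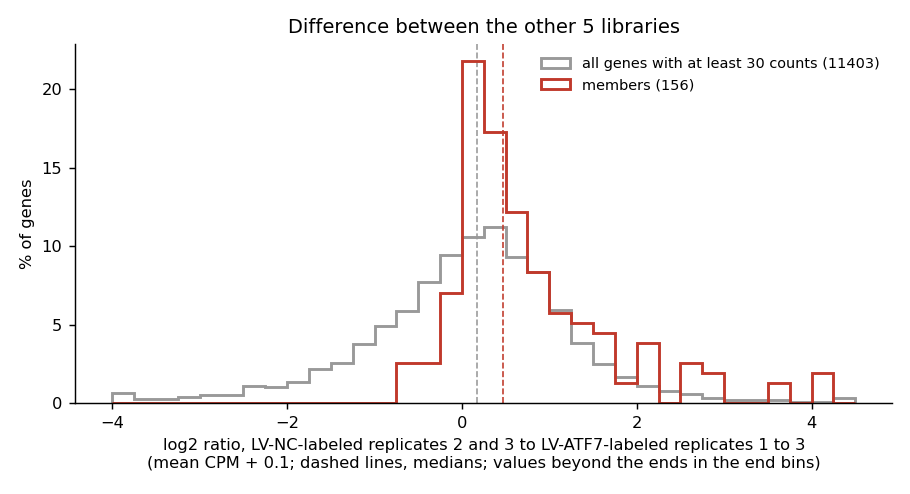
Share of genes (vertical axis, %) by the log2 ratio of LV-NC-labeled replicates 2 and 3 to LV-*ATF7*-labeled replicates 1 to 3 (horizontal axis), for the 156 members (red) and all 11403 genes with at least 30 counts (gray), with medians as dashed lines. The members have few values under 0, with a lowest value of -0.70, and a median of 0.46 where all genes have 0.18, but the rule itself kept out most genes that were high in the LV-*ATF7* libraries.

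Among the 101 members with the LV-NC libraries on top, the mean in LV-NC-labeled replicates 2 and 3 was at least 2 times the LV-*ATF7* mean in 46 and at least 4 times in 18. The rule itself favored members of this kind, and the share of all genes at these folds was not counted. The upper quartile of this ratio of means was 2.21 over the members and 1.72 over all genes with at least 30 counts. Examples among the 101, named after their values were seen, are *TUBB3*, a β-tubulin of neurons, *DBN1*, the actin-binding drebrin, and *HSPA12A*, an HSP70 relative. *TUBB3* was at 46.3 CPM in the outlying library, 23.7 and 23.6 CPM in the other LV-NC libraries and 2.04, 1.80 and 1.94 CPM in the LV-*ATF7* libraries. *DBN1* was at 42.7, 22.5 and 21.4 CPM in the LV-NC libraries and 5.73, 6.57 and 7.64 CPM in the LV-*ATF7* libraries. *HSPA12A* was at 125, 70.4 and 70.9 CPM and at 21.6, 22.6 and 19.6 CPM, and its ratio of 1.76 fell to 1.66 with TMM scaling, under the threshold. In each, the groups did not overlap and the outlying library was the farthest from the LV-*ATF7* libraries. Both follow from the rule and from the choice of examples among the 101 members.

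The 8 members that ran the other way were *HES1*, *KRT16*, *TNIK*, *ADAMTSL4*, *PLEKHH2*, *MBD5*, *PSD* and *REM2*, which were named after their values were seen. *HES1*, a repressor that Notch signaling induces, was at 286 CPM in the outlying library, 97.4 and 89.3 CPM in the other LV-NC libraries and 154, 148 and 154 CPM in the LV-*ATF7* libraries. In the outlying library *HES1* was thus 3.07 times the mean of the other LV-NC libraries and 1.86 times the highest other library. *TNIK*, a kinase of the Wnt and JNK pathways, was at 56.2 CPM, compared with 19.6 and 20.9 CPM and with 27.2, 31.9 and 27.1 CPM. *KRT16*, a keratin of wounded and stressed epidermis, was at 22.3 CPM, compared with 8.20 and 6.47 CPM and with 12.1, 9.29 and 11.1 CPM. With TMM scaling, 6 of these 8 had ratios under the threshold (1.56 for *HES1* and 1.61 for *KRT16*), and *MBD5* and *REM2* stayed over it.

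*KRT16* parted from the other keratins of the same setting. *KRT6A*, whose protein pairs with keratin 16, was at 1.41 CPM in the outlying library, 99.2 and 96.1 CPM in the other LV-NC libraries and 18.4, 19.0 and 17.6 CPM in the LV-*ATF7* libraries. *KRT17* was at 3.17 CPM, compared with 10.2 and 10.9 CPM and with 3.64, 3.36 and 4.89 CPM. In the outlying library *KRT16* was therefore at its highest level of the 6 libraries and *KRT6A* at its lowest. *KRT17* was below the other LV-NC libraries there. It was close to LV-*ATF7*-labeled replicates 1 and 2, on 54 counts compared with 68 and 69. Keratin genes have close paralogs and pseudogenes, and how reads shared by them were counted is not given in the sources used here.

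All 156 members were protein coding in GENCODE release 29, as were 99.8% of all genes with at least 30 counts. Their exons covered a median of 5688 bases, compared with 5241, and the GC content of the longest transcript had a median of 48.3% in both. At least 50% of the exon bases lay in exons of other genes for 9 members (5.77%), compared with 1.51% of all genes. These were *SPSB3*, *JMJD7*, *LRP11*, *OPN3*, *PTP4A1*, *YPEL1*, *SLC18A2*, *ZRANB1* and a gene without a symbol (ENSG00000261582), and reads of such genes cannot be assigned to one gene with certainty without knowledge of the counting. *NDUFV2*, a subunit of respiratory complex I at 9.58 CPM against at most 3.60 CPM, had 28.4% of its exon bases shared in this way. Zinc finger genes with a ZNF symbol were 4 of the members (2.56%), against 3.07% of all genes.

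Other genes were lowest in the outlying library. Of the mitosis and DNA replication list, 7 of 29 genes lay below the lowest other library by this fold, against 1.47% of all genes, and the median ratio to the highest other library was 0.262. *PLK1*, a mitotic kinase, was at 20.6 CPM in the outlying library, 141 and 137 CPM in the other LV-NC libraries and 58.4, 54.7 and 57.1 CPM in the LV-*ATF7* libraries. *MCM7*, a subunit of the replicative helicase, was at 145 CPM, compared with 397 and 384 CPM and with 460, 454 and 480 CPM. The list summed to 1660 CPM in the outlying library, 5489 and 5416 CPM in the other LV-NC libraries and 2239 to 2338 CPM in the LV-*ATF7* libraries, and its part in the height of the members was not tested. With TMM scaling, 219 genes were lowest and 93 members highest by the same fold, in place of 159 and 156.

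Cell type markers moved with the outlying library in part. Summed over 10 keratinocyte markers, it had 1524 CPM, the other LV-NC libraries 2249 and 2309 CPM and the LV-*ATF7* libraries 6070 to 6283 CPM, and *KRT14*, a defining keratin of basal keratinocytes, was at 0.412 CPM in it and at most 13.1 CPM anywhere. *KRT5* was at 110 CPM in it, compared with 371 and 356 CPM and with 3094, 3067 and 3335 CPM. Of the other keratinocyte markers, *KRT17*, *KRT6A*, *SFN*, *DSP* and *CDH1* were also lower in it than in both other LV-NC libraries. *TP63*, *PKP1* and *ITGA6* were higher in it than in those, at 20, 131 and 159 CPM, compared with 16.2, 91.6 and 153 CPM in the higher of them, and lay at no less than 202, 399 and 183 CPM in the LV-*ATF7* libraries. Fibroblast markers with a row (3 of 8) summed to 46.9 CPM, compared with 36.6 and 38.3 CPM and with 16.7 to 20.1 CPM, of which *COL1A1* gave 45.1 CPM. *DCN* was at 1.82 CPM in the outlying library, compared with 0 and 0 CPM and with 2.09, 2.87 and 2.60 CPM. *THY1* was at 0 CPM there, compared with 2.02 and 1.20 CPM and with 0.0536, 0 and 0.0509 CPM. Monocyte or macrophage markers (3 of 10) summed to 6.11 CPM, compared with 7.73 to 11.7 CPM elsewhere, and endothelial markers (2 of 5) to 1.23 CPM, compared with 5.14 and 5.69 CPM and with 81.2 to 85.0 CPM. The endothelial sum was mostly *CDH5*, at 0.705 CPM, compared with 3.88 and 5.03 CPM and with 77.8, 82.2 and 79.1 CPM. Melanocyte markers (2 of 6) summed to 27.2 CPM, compared with 21.1 and 18.2 CPM and with 11.6 to 12.2 CPM. *MITF* gave 25.2 CPM of the sum in the outlying library and 18.8 and 16.0 CPM in the other LV-NC libraries. In the LV-*ATF7* libraries *MITF* gave 8.30, 8.36 and 6.42 CPM. Mitochondrially encoded genes summed to 36388 CPM in the outlying library and to 34670 to 44179 CPM in the others. In bulk RNA, fewer cells of a type and less RNA per cell cannot be told apart, and the part of these markers in the height of the members was not tested.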

How the data were processed

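RNA from HG-treated HaCaT cells carrying either lentivirus was sequenced as 3 poly(A) libraries per group on an Illumina NovaSeq instrument. For 12499 genes, unnormalized counts and FPKM values were deposited by the authors, mapped to GRCh38 per the submitters' processing notes. The aligner, counter, annotation and strandedness are not given in the sources used here. The authors' deposited FPKM values served only as an alternative to the counts, and the authors' own fold changes and p-values in the table were not used. All 6 count columns were matched to a sample. Pairs of replicates differed beyond sampling noise (chi-square of 2.86 to 76.2 per gene). Positions and exons came from GENCODE release 29 by gene identifier.

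CPM was the count divided by the column total times 1000000. No group test was made. Intervals of a ratio of 2 libraries are 95% exact binomial (Clopper-Pearson, scipy 1.17.1) and cover counting error only. The members and the gene lists were chosen with earlier results of these data known. Named by rule were the 12 members of highest ratio, the 5 of highest CPM (1 is not reported here), the 4 of highest ratio in each list with at least 2 members, 3 genes on each side of the threshold and the 8 genes left out, and any other gene was named after its values were seen. The 23 gene lists were written from general knowledge. Scaling alternatives used edgeR 4.0.16 (TMM, upper quartile) and DESeq2 1.42.0 (median of ratios) in R 4.3.3. The rule and the interval were tested on simulated counts.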

Additional observations from a re-analysis of the deposited data

How the results depend on the processing

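The number of members, 156, was 405 at a fold of 1.5, 61 at a fold of 2, 93 with TMM scaling, 1113 against the mean of the other 5 libraries and 39 where the counting interval had to lie above the threshold fold. It was 105 with median-of-ratios scaling, 107 with upper quartile scaling, 106 with at least 100 counts and 156 with at least 10 counts or with FPKM, and leaving out each other library in turn gave 160 to 217. All 93 genes under TMM scaling were members under the other scalings too. The immediate early members numbered 5 at a fold of 2, 17 against the mean and 8 to 9 with each other library left out. The FOXO members numbered 4 at a fold of 1.5, 0 at a fold of 2, 4 against the mean and 1 (*KLF6*) with TMM, median-of-ratios or upper quartile scaling or the interval. The most genes that the rule picked in another library, 4, became 21 at a fold of 1.5, 1 at a fold of 2 and 1 with at least 100 counts. The median log2 ratio between the other libraries, 0.46, was 0.96 with LV-NC-labeled replicate 1 kept, 0.33 with TMM scaling and 0.38 with a pseudocount of 1, and 0.46 to 0.52 with each library left out. With TMM scaling, 15 members in place of 8 were higher in LV-*ATF7* in the other 5 libraries, an alternative chosen after seeing the data, as were TMM scaling of the lowest genes and of the genes highest by any margin. Of the 27 genes over the threshold that the naming rule chose, 4 fell under it with TMM scaling (*ARRDC4*, *SOX4*, *CCDC17* and *PTPRJ*), as did members named after their values were seen, among them *VLDLR*, *ZMAT3*, *HSPA12A*, *HES1*, *KRT16* and *TNIK*. No paired analysis was possible because a single library is described and no test between groups was made. A minimum of 10 counts added no gene because each gene in the table had at least 1.02 CPM in 2 libraries, so that the fold alone requires 30.3 counts in LV-NC-labeled replicate 1.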
